A study of Mus musculus with 2 samples.

Results

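The amyloid precursor family and its processing genes were present at nearly the same RNA level in WT and *Rbfox3*-/- (KO) cerebral cortex, and the isoform proportions that could be read were also close between the genotypes. The group holds 7 genes, which were chosen by symbol from the 37303 genes of the deposited gene table: *App*, *Aplp1* and *Aplp2* (the precursor family), *Adam10*, *Bace1* and *Psen2* (genes of the secretases that cut these proteins) and *Apbb1* (an adaptor of the precursor's tail). Their 26 rows among the 90835 rows of the isoform table were taken by gene identifier. None of the 7 genes differed by 2-fold, which was rare among all 13042 measured genes too (0.491% at least 2-fold higher in KO and 0.583% at least 2-fold lower).

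The RNA came from the right cortical hemisphere of P56 male mice, with 1 WT and 1 KO library. KO mice were homozygous for the *Rbfox3* tm1a(EUCOMM)Hmgu allele, a germline allele present in every cell type, on a C57BL/6N background (B6 in the labels), and WT mice were their littermates from matings between heterozygotes. No treatment other than isoflurane before sacrifice is described for either genotype, and the number of mice behind each library is not given in the sources used here. Since each genotype is 1 library, the spread between mice is unknown, no test between the genotypes was made here, and every difference here is a description of these libraries.

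Amyloid precursor proteins are membrane proteins of neurons and other cells that are shed in successive cuts. An alpha-secretase such as ADAM10 cuts within the amyloid-beta stretch of APP, whereas the beta-secretase BACE1 cuts at its start, and the gamma-secretase complex, whose catalytic subunit is a presenilin such as that encoded by *Psen2*, then cuts within the membrane and releases amyloid-beta after a BACE1 cut. APLP1 and APLP2 share the large extracellular part and the cytoplasmic tail with APP but have no amyloid-beta sequence, and the FE65 adaptor encoded by *Apbb1* binds that tail. The family is also known for its splicing: most neuronal *App* mRNA skips the exon that encodes a Kunitz-type protease inhibitor (KPI) domain and the small exon after it, and *Apbb1* has a neuron-specific microexon.

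The skipped exons of *App*, *Aplp2*, *Bace1* and *Apbb1* are shown first, since isoforms of these genes differ in them and since those of *App* and *Apbb1* are known to differ between neurons and other cells. The 7 printed here were picked from 20 exons of this kind in the 7 genes, after the annotation had been read. All come from the GENCODE M21 annotation of GRCm38, the build of the files, are coding exons that at least 1 annotated protein-coding transcript skips, and are written 5′ to 3′ on the RNA strand with TGCATG, the RBFOX motif that was searched in the study, in capitals. The *App* KPI exon is 168 bases long (chr16:85043576-85043743, minus strand) and is followed by an exon of 57 bases (chr16:85040251-85040307), and a further skipped exon of 54 bases (chr16:84971408-84971461) lies nearer the amyloid-beta stretch. *Aplp2* also has a KPI exon of 168 bases (chr9:31167561-31167728, minus strand) and a skipped exon of 36 bases (chr9:31156190-31156225), *Bace1* has a skipped exon of 102 bases (chr9:45858400-45858501, plus strand), and all 6 exons have a length divisible by 3.
App KPI exon: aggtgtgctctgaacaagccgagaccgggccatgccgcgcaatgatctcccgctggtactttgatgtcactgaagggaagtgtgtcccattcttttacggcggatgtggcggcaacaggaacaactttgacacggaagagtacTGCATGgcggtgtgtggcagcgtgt
App exon of 57 bases: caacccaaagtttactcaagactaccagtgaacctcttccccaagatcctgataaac
App exon of 54 bases: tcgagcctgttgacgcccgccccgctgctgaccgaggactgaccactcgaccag
Aplp2 KPI exon: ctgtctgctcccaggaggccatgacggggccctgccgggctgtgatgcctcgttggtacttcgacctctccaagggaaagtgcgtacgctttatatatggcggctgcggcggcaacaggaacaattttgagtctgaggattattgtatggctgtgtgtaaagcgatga
Aplp2 exon of 36 bases: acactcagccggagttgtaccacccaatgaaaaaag
Bace1 exon of 102 bases: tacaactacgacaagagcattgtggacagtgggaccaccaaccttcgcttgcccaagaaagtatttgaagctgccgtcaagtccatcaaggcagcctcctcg

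The KPI exons of *App* and *Aplp2* aligned without gaps, with 114 of 168 positions identical (67.9%). Of the annotated protein-coding transcripts that span it, the *App* KPI exon is present in 5 and skipped by 1, and the *Aplp2* KPI exon is present in 2 and skipped by 2. The *App* KPI exon holds 1 TGCATG near its 3′ end, and the *Aplp2* KPI exon and the other 4 exons hold none. Among all 842 annotated internal exons of 168 bases in protein-coding transcripts, 4.75% hold the motif on the RNA strand. None of these 6 exons holds the motif on the opposite strand. For *Aplp1* the annotation has 1 protein-coding transcript, so no exon skipped by another could be found. *Psen2*, with 6 such transcripts, has no exon of this kind. Of the exons not printed, *Adam10* has those of 151, 119 and 159 bases, *App* those of 222, 101 and 147 bases, and *Apbb1* the others. The microexon of *Apbb1* is 6 bases long (chr7:105565946-105565951, minus strand), is present in 5 protein-coding transcripts and skipped by 6. It is shown in capitals with 12 bases of the neighbouring exon on each side.
Apbb1 microexon: ggacagtggaagAGAGAGggactttgccta

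The exons on either side of this microexon both hold a TGCATG. The exon before it is 128 bases long, its motif overlaps a match on the opposite strand, and 4.46% of 1099 internal exons of that length hold TGCATG. The exon after it is 115 bases long, and 3.72% of 1184 exons of that length hold the motif. Over the longest protein-coding transcript of each gene, *Apbb1* holds 3 TGCATG in 2878 bases, *App* 3 in 8167 bases, *Aplp2* 2 in 3634 bases, *Adam10* 1 in 4593 bases and *Aplp1* 1 in 2343 bases, and *Bace1* and *Psen2* hold none. The motif is common: 57.6% of the 12224 protein-coding genes measured at a mean of 1 FPKM or more have it in this transcript, at 2.87 motifs per 10 kb. The study looked for the motif in the sequence upstream and downstream of exons, and tested exon usage from the reads. Here only exons and spliced transcripts were read, so these matches are not those of the study. Introns were not searched, since no genome sequence was used here.

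*App* was the most abundant of the 7 genes. Values are FPKM, fragments per unit of transcript length and per unit of library size, which allow levels of different genes to be set side by side. *App* (ENSMUSG00000022892, chr16:84949685-85173766, minus strand) was at 415 FPKM (WT) and 370 FPKM (KO), 1.12-fold lower in KO. It ranked 78th of all genes in WT and 81st in KO.

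*Aplp1*, a family member found mainly in the nervous system, was at 241 FPKM (WT) and 214 FPKM (KO), 1.13-fold lower in KO (ENSMUSG00000006651, chr7:30434982-30445535, minus strand). The more widely expressed *Aplp2* (ENSMUSG00000031996, chr9:31149557-31211815, minus strand) was at 163 FPKM (WT) and 174 FPKM (KO), 1.07-fold higher in KO. *App* and *Aplp1* thus lay on the same side with nearly the same ratio, and *Aplp2* lay on the other. Of the summed FPKM of the family, 819 in WT and 758 in KO, *App* made up 50.7% in WT and 48.8% in KO, *Aplp1* 29.4% and 28.2%, and *Aplp2* 19.9% and 23.0%. These shares do not depend on how the libraries are scaled against each other. The ratio of *App* to *Aplp1* was 1.73 in both libraries, whereas that of *App* to *Aplp2* was 2.54 in WT and 2.12 in KO.

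*Apbb1* (ENSMUSG00000037032, chr7:105558483-105581653, minus strand) was at 65.2 FPKM (WT) and 63.3 FPKM (KO), the nearest pair of the 7 genes. *Adam10* (ENSMUSG00000054693, chr9:70678997-70780229, plus strand) was at 33.5 FPKM (WT) and 39.4 FPKM (KO), 1.18-fold higher in KO and the largest ratio in the group. *Bace1* (ENSMUSG00000032086, chr9:45838580-45864399, plus strand) was at 22.7 FPKM (WT) and 25.1 FPKM (KO), 1.11-fold higher. Both of these enzyme genes were thus slightly above WT in KO, and the ratio of *Adam10* to *Bace1* was 1.48 in WT and 1.57 in KO. With *App* on the other side of WT, its level was 12.4 times that of *Adam10* in WT and 9.40 times in KO, and 18.3 and 14.7 times that of *Bace1*.

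*Psen2* (ENSMUSG00000010609, chr1:180227004-180263438, minus strand) was the least abundant, at 4.70 FPKM (WT) and 5.29 FPKM (KO), 1.13-fold higher in KO. The order of the 7 genes, from *App* through *Aplp1*, *Aplp2*, *Apbb1*, *Adam10* and *Bace1* to *Psen2*, was the same in WT and KO. Without replicates it cannot be said whether neighbours in this order differ beyond their spread.

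**Figure D1:**
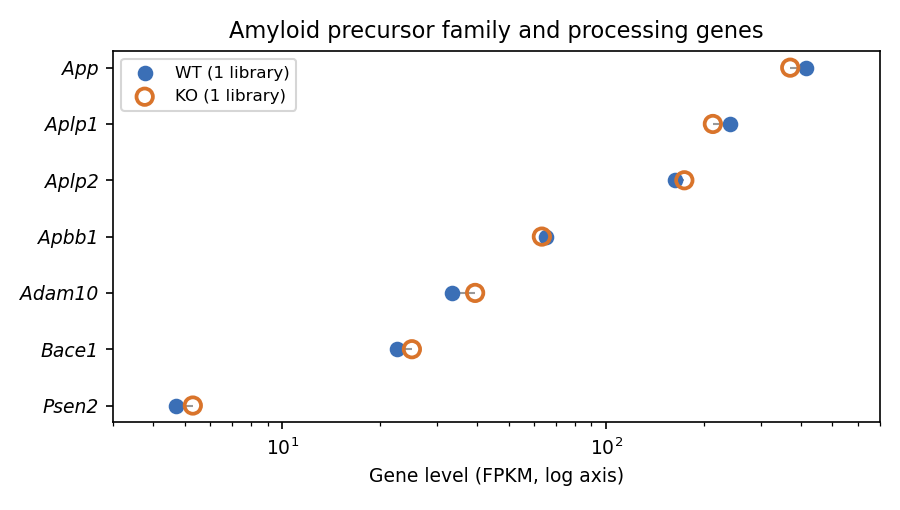
Gene level of the 7 genes on a log axis in FPKM, with a filled point for the WT library and an open circle for the KO library, 1 library each. The levels span from 4.70 FPKM (*Psen2*, WT) to 415 FPKM (*App*, WT), and the 2 points of each gene lie close together.

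To set these differences beside those of other genes, the log2 of KO over WT was computed after 1 FPKM was added to both values, and a gene was counted as higher or lower at a 2-fold ratio on that scale. On it *Adam10* was at 0.23, *Bace1* at 0.14, *Psen2* at 0.14, *Aplp2* at 0.10, *Apbb1* at -0.04, *App* at -0.16 and *Aplp1* at -0.17. All 7 genes passed the filter of a mean of at least 1 FPKM, as did 13042 genes in all. Of those, 0.491% were at least 2-fold higher in KO and 0.583% at least 2-fold lower, against 0 of the 7 genes. At a finer limit, a log2 ratio of 0.32 in size, 6.95% of all genes were higher and 5.52% lower, again against 0 of the 7. With 7 genes, a count of 0 is near these shares.

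The median log2 ratio of the 7 genes was 0.10 and that of all 13042 genes was 0.02. Where the mean had to reach 10 FPKM, which leaves out *Psen2*, the median of the other 6 genes was 0.03. The central 95% of all genes ran from -0.45 to 0.46, and that of the 6561 genes whose mean reached 10 FPKM from -0.37 to 0.42. All 7 genes were inside both ranges. Of all genes, 24.2% were at least as far from 0 as *Adam10*, 37.0% as *Aplp1*, 38.9% as *App* and 82.2% as *Apbb1*. If the KO values are scaled so that both libraries have the same sum over genes above 0, mitochondrial genes left out, the median of all genes moves up by 0.12, *Adam10* reaches 0.36 and passes the finer limit, as 17.5% of all genes do, and *Apbb1* turns to 0.09, whereas *App* and *Aplp1* stay below 0, at -0.03 for each.

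**Figure D2:**
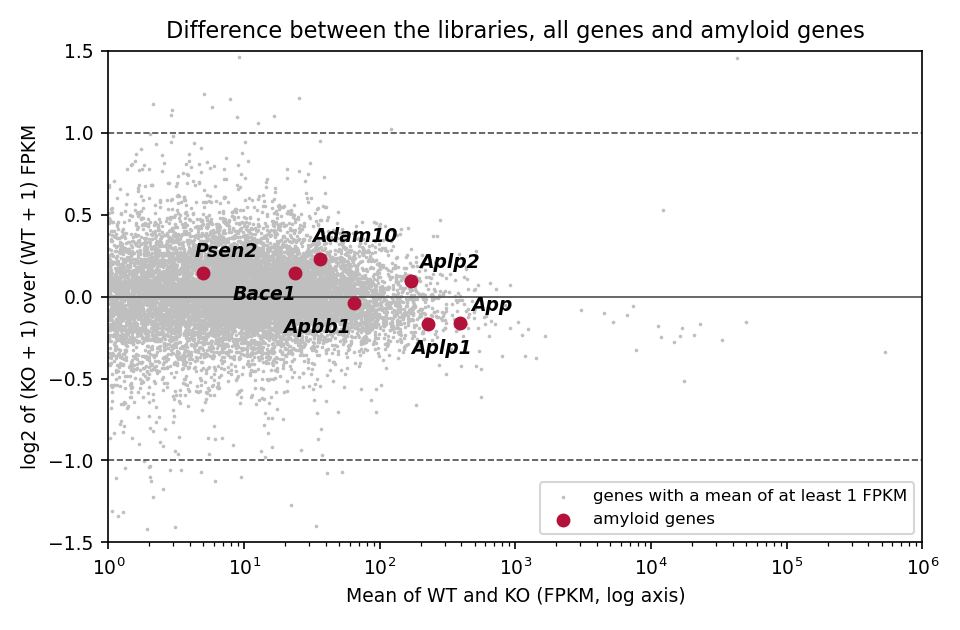
Log2 ratio of KO over WT, with 1 FPKM added to both values, against the mean of the libraries in FPKM on a log axis. Grey points are the genes whose mean reached 1 FPKM (104 genes beyond a log2 of 1.5 in size are outside the plot), dashed lines mark 2-fold, and the 7 red points all lie within the grey cloud, between -0.17 (*Aplp1*) and 0.23 (*Adam10*).

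Markers of oligodendrocytes, striatal neurons and choroid plexus differed between the libraries by larger ratios than the 7 genes. All 8 oligodendrocyte markers were lower in KO past the finer limit, with a summed level of 1543 FPKM (WT) and 1053 FPKM (KO). All 8 striatal neuron markers were also lower (201 and 73.4 FPKM summed), and the sum of 6 choroid plexus markers was 231 FPKM (WT) and 6.18 FPKM (KO). Most of that sum was *Ttr* (221 and 3.71 FPKM), and 3 of the 6 reached a mean of 1 FPKM, each at least 2-fold lower in KO. The 5 markers of excitatory neurons, among them the cortical gene *Tbr1*, summed to 818 FPKM (WT) and 858 FPKM (KO), and the 6 of inhibitory neurons to 395 and 400.2 FPKM. The 6 astrocyte markers summed to 543 and 514 FPKM, the 8 of microglia to 98.1 and 95.3 FPKM, and the 5 of endothelial cells to 62.1 and 55.1 FPKM. The 5 of oligodendrocyte precursors and the wider oligodendrocyte lineage summed to 46.2 and 36.6 FPKM. Within these lists *Cldn5*, an endothelial tight junction gene, was 2.35-fold lower in KO, and *Olig1*, *Olig2* and *Sox10* were lower past the finer limit, whereas *Pdgfra* and *Cspg4* had log2 ratios of 0.04 and 0.02. No marker was listed at 0 in either library. The part of these cell types in the levels of the 7 genes was not tested. In whole tissue, fewer cells of a type, less RNA per cell and less neighbouring tissue taken with the sample cannot be told apart. *Rbfox3* itself was at 57.3 FPKM (WT) and 6.46 FPKM (KO), and none of the 7 genes lies on its chromosome.

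Isoform proportions could be compared for 4 of the 7 genes. *App*, *Aplp1* and *Apbb1* each have 1 row in the isoform table, with the same value as the gene, so the table carries no information on their KPI exon or microexon, although GENCODE M21 annotates 6 protein-coding transcripts of *App* and 17 of *Apbb1*. The isoform rows carry no transcript identifiers. They are therefore named here by their order of abundance in WT, and none could be assigned to a transcript or to one of the exons above.

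*Aplp2* was almost evenly divided between its 2 isoforms in both genotypes. The first isoform was at 85.0 FPKM (WT) and 89.2 FPKM (KO), 52.1% and 51.1% of the gene. The second was at 78.2 FPKM (WT) and 85.2 FPKM (KO), 47.9% and 48.9%. Both isoforms were thus slightly above WT in KO, and their proportions differed by 0.944 percentage points.

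*Bace1* has 6 rows, of which 2 are listed at 0 in both libraries, and 3 made up at least 5% of the gene. Its first isoform was at 10.997 FPKM (WT) and 12.6 FPKM (KO) (48.5% and 50.1%), its second at 8.86 and 9.65 FPKM (39.1% and 38.4%), and the next at 2.64 and 2.71 FPKM (11.6% and 10.8%). The order of the 3 isoforms was the same in both libraries. *Adam10* was nearly all 1 isoform, at 32.7 FPKM (WT) and 38.7 FPKM (KO), or 97.7% and 98.2% of the gene. Its other 3 rows were at most 0.623 FPKM.

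*Psen2* has 11 rows, 4 of them listed at 0 in both libraries. Its main isoform was at 4.31 FPKM (WT) and 4.57 FPKM (KO), 91.6% and 86.4% of the gene. Most of the difference came from a row that is listed at 0 for WT and has 0.229 FPKM (KO), which is 4.33% of the gene in that library. At this low level the number of fragments behind that row is not known.

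The isoform shift of a gene, 0.5 times the sum of the absolute differences between its isoform shares, is 0 where the proportions are equal. It was 0.0050 for *Adam10*, 0.0094 for *Aplp2*, 0.0154 for *Bace1* and 0.0561 for *Psen2*. Over the 8677 genes that have 2 or more isoforms and reach 1 FPKM in each library, the median was 0.0656, and 11.3% of genes had a shift of at least 0.2 and 34.0% one of at least 0.1, against 0 of the 4 genes at either limit. Among the 4555 of these genes that reach 10 FPKM in each library the median was 0.0499. *Adam10*, *Aplp2* and *Bace1* lay below it, and *Psen2*, which does not reach 10 FPKM, lay below the median of all genes.

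**Figure D3:**
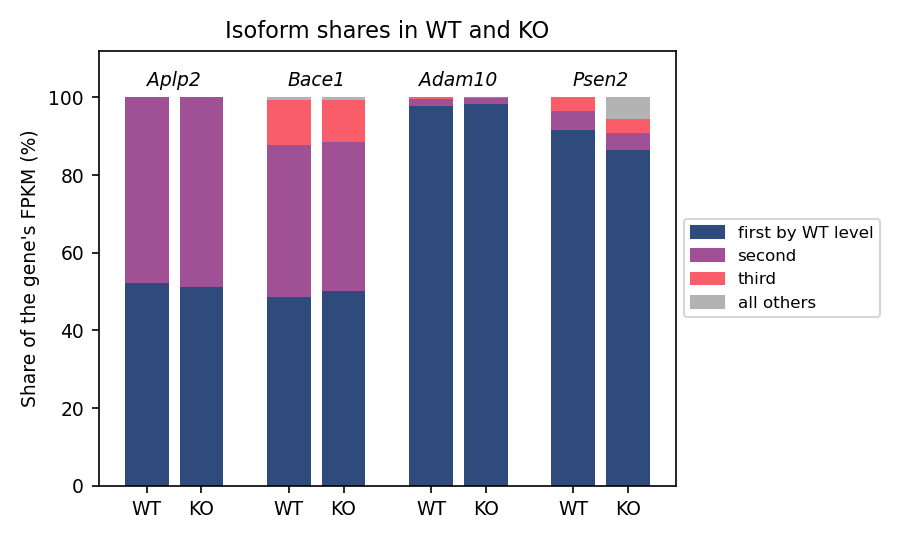
Share of the isoforms in the summed FPKM of their gene (%), in the WT and the KO library, for the 4 genes with more than 1 isoform row. Isoforms are stacked in the order of abundance in WT, and those after the third are pooled. The bars of a gene differ little, by 0.944 percentage points for the isoforms of *Aplp2* and by up to 5.29 points for the main isoform of *Psen2*.

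The wider amyloid pathway was read from 9 lists of genes by role, which hold 60 genes with the 7 included. Of these, 59 reached a mean of 1 FPKM, and *Tspan10* was listed at 0 in both libraries. The median log2 ratio of the 59 genes was 0.03, beside 0.02 for all genes. Of the 59 genes 1, *Ide*, was at least 2-fold higher in KO and 0 were at least 2-fold lower, beside 0.491% and 0.583% of all genes. At the finer limit of 0.32, 3 genes were higher (*Ide*, *Bace2* and *Apba2*) and 2 were lower (*Apbb2* and *Adam17*), which is 5.08% and 3.39% of the 59 genes beside 6.95% and 5.52% of all genes. Without the added FPKM, 6 genes are higher at this limit, with *Nrg1*, *Aph1b* and *Aph1a* as the further ones.

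Among the secretases, *Adam17*, the other main alpha-secretase of the brain, was at 6.84 FPKM (WT) and 5.21 FPKM (KO), 1.31-fold lower in KO. Its log2 ratio of -0.34 becomes -0.22 with KO scaled to the same sum, which no longer passes the finer limit. *Bace2*, a homologue of *Bace1* that is scarce in neurons, was at 0.954 and 1.51 FPKM. Its ratio depends on the added FPKM, with a log2 of 0.36 as computed and 0.67 without it. No subunit of gamma-secretase passed the finer limit with 1 FPKM added. The highest ratio there was that of *Aph1b*, at 9.15 FPKM (WT) and 11.5 FPKM (KO), and the lowest that of *Psenen*, which encodes the small subunit PEN-2, at 22.6 and 19.6 FPKM. In the TspanC8 tetraspanins, which carry ADAM10 to the cell surface, log2 ratios ran from -0.10 for *Tspan5* to 0.02 for *Tspan15*.

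Of 11 genes of adaptors that bind the APP tail, *Apbb2*, a homologue of *Apbb1*, was lowest at 15.8 FPKM (WT) and 9.84 FPKM (KO), 1.60-fold lower in KO. *Apba2*, which encodes the neuronal adaptor MINT2, was highest at 36.1 FPKM (WT) and 46.6 FPKM (KO). *Apbb1* lay between them at nearly equal levels, so the related genes *Apbb1* and *Apbb2* had log2 ratios of -0.04 and -0.63. The 12 genes that sort APP and BACE1 ran from -0.14 (*Itm2c*) to 0.21 (*Sorl1*, a receptor that carries APP out of endosomes), and none passed the finer limit. The 8 other substrates of BACE1 ran from -0.09 (*Cntn2*) to 0.27 (*Nrg1*), with a median of 0.10. Again none passed the finer limit with 1 FPKM added.

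**Figure D4:**
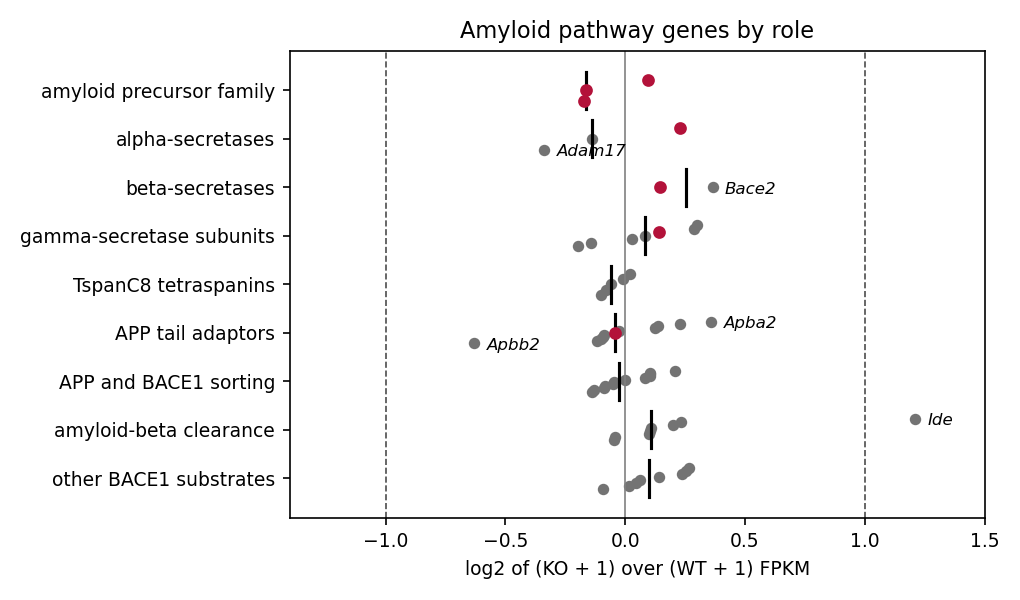
Log2 ratio of KO over WT, with 1 FPKM added to both values, for the 59 measured genes of 9 role lists. Red points are the 7 amyloid genes, black bars are list medians and dashed lines mark 2-fold, beyond which only *Ide* lies (1.21).

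*Ide*, which encodes the insulin-degrading enzyme, a protease that also breaks down amyloid-beta, was at 14.9 FPKM (WT) and 35.7 FPKM (KO), 2.40-fold higher in KO. The other 7 genes of the clearance list had log2 ratios from -0.05 to 0.23, with *Apoe* lowest at 428 FPKM (WT) and 414 FPKM (KO). Neighbours of *Ide* on chromosome 19 were read after its value was seen, for all genes within 700000 bases with a mean of at least 1 FPKM. *Fgfbp3* was at 5.77 FPKM (WT) and 8.30 FPKM (KO), *Btaf1* at 10.9 and 18.6 FPKM, and *Cpeb3* at 24.9 and 35.3 FPKM. These genes were thus also above WT in KO, by 1.44-fold, 1.70-fold and 1.42-fold. *March5*, which lies between *Cpeb3* and *Ide*, was at 54.8 FPKM (WT) and 50.9 FPKM (KO), and the outer neighbours *Ppp1r3c* (12.97 and 14.78 FPKM), *Tnks2* (52.6 and 55.5 FPKM) and *Exoc6* (16.0 and 16.2 FPKM) were 1.14-fold, 1.06-fold and 1.01-fold higher in KO. Copies of a segment with *Ide* and *Fgfbp3* are known to vary in number among C57BL/6J mice. The mice here are described as C57BL/6N, and the substrain of each library was not tested. In the order used here, *Btaf1*, *Cpeb3* and *March5* lie between *Fgfbp3* and *Ide*. Copy number was not measured in these libraries and its part in the level of *Ide* was not tested.

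**Figure D5:**
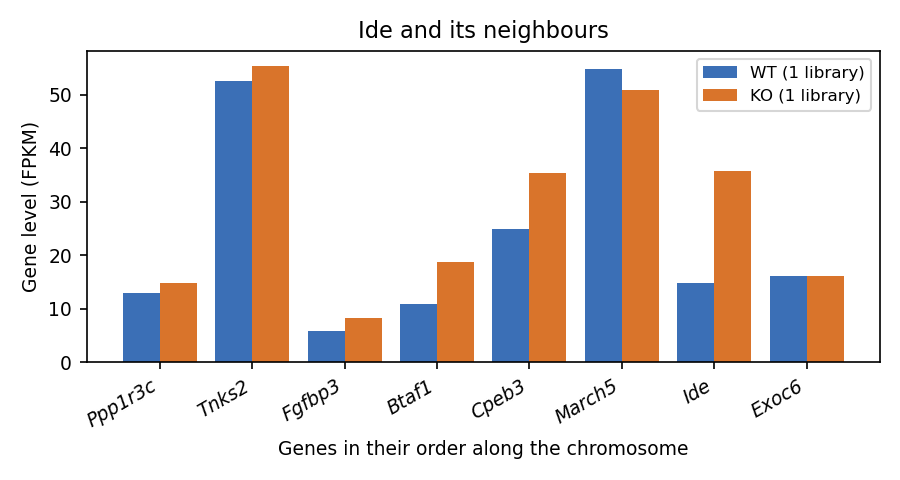
Gene level (FPKM, linear axis from 0) in the WT and the KO library for *Ide* and the measured genes within 700000 bases of it, in their order along the chromosome. The KO bar is the higher one for 7 of the 8 genes, by 2.40-fold for *Ide*, by 1.42-fold to 1.70-fold for *Fgfbp3*, *Btaf1* and *Cpeb3* and by 1.01-fold to 1.14-fold for *Ppp1r3c*, *Tnks2* and *Exoc6*, and *March5* has the higher bar in WT.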

How the data were processed

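The 1 WT and the 1 KO cortex library of mouse were compared. Per the labels, the authors used a strand-specific library kit, and TopHat, Cufflinks and GRCm38 are named in the submitters' processing notes (tool versions are not given in the sources used here). The labels name cerebral cortex as the source, although their shared extraction text covers cortex or hippocampus. The deposited gene and isoform tables give FPKM for each library, as the authors made them. They also hold the authors' p-values and q-values, and further deposited lists hold the authors' ratios, changed genes and enriched terms. None of these was used.

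FPKM keeps no counts, so depth is unknown and intervals are left out. For 1951 low genes (1 isoform, under 0.3 FPKM), KO over WT was most often near 0.889 (8.61% within 0.5% of it). Equal fragment numbers in a KO library 1.13 times deeper have this ratio.

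Log2 ratios of KO + 1 over WT + 1 FPKM were computed with Python 3.11.15, numpy 2.4.6 and pandas 2.3.3 for genes whose mean reached 1 FPKM, and figures were drawn with matplotlib 3.10.9. The log2 ratio at the 2-fold limit was tested on simulated data, and the isoform shift on a small made-up example. The finer limit was not tested in this way. The 7 genes, the role lists, the marker lists and the limits were chosen with earlier results of these data known. Named genes are the 7, their isoforms of at least 5%, and of each role list the genes past 2-fold and the highest and lowest ratio. The finer log2 limit was 0.32, and genes past it were named after their values were seen. The symbol of *March5*, altered in the deposited table, was restored by its gene identifier. Exon sequences and positions were read from GENCODE M21 (GRCm38). Alternatives were another pseudocount or none, other filters, and scaling of KO by the median or by the sum of FPKM. A log2 ratio was counted as moved by an alternative at 0.1 or more, and a shift at 0.05 or more.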

Additional observations from a re-analysis of the deposited data

How the results depend on the processing

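With 1 library per genotype, there is no replicate to leave out, and no alternative measures the spread between mice. No paired analysis was possible because each genotype has a single library and no test was made. The planned search for TGCATG in windows beside the exons, with its narrower window and with GCATG in its place, was not run, since no genome sequence was used here.

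None of the 7 genes reached 2-fold under any alternative, although *Psen2* has no value where the mean had to reach 10 FPKM. No isoform shift of the 4 genes moved by 0.05 or more where it had a value under the isoform filters tried. With the KO library scaled to the same sum, the median of the 7 genes was 0.23 and 1 of them (*Adam10*) was higher at the finer log2 limit of 0.32, and in the role lists 12 genes were higher at this limit and 1 lower (*Apbb2*; *Adam17* was at -0.22). Over all genes that scaling put 86.0% of the differences past that limit on the higher side, against 55.7% as deposited, with 2276 genes higher and 371 lower against 907 and 720. Role-list genes higher at that limit numbered 5 with 0.1 FPKM added and 6 with none added, against 3 with 1 FPKM added, and where the mean had to reach 10 FPKM 1 was lower, against 2. *Ide* was at 1.19 to 1.34 on the log2 scale and *Apbb2* at -0.68 to -0.51. The other alternatives left these counts within 1.5 times.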
